A study of Mus musculus with 4 samples.

Results

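Death receptors are cell surface proteins of the TNF receptor superfamily that carry or connect to a death domain, and 10 genes of that system were measured in mouse embryonic fibroblasts (MEFs). They are the TRAIL ligand gene Tnfsf10, the receptors Fas, Tnfrsf10b, Tnfrsf1a, Tnfrsf1b and Eda2r, the adaptor and kinase genes Fadd and Ripk1, the protease gene Casp8 and its inhibitor Cflar. The 10 genes were chosen by name and found through the gene name that the array files give to each probe, among 31704 genes in all. They are covered by 14 probes on 23 spots. All 4 RNA samples were MEFs, connective tissue cells cultured from embryos, either p53+/+ (wild-type, WT) or p53-/-, and either left without an agent or treated with doxorubicin, an anthracycline that blocks topoisomerase II and breaks DNA. Each condition was measured once, on 1 of 4 one-color Agilent mouse arrays of 1 slide. The labels give neither the dose and time of doxorubicin nor the age, strain or number of embryos behind each culture. The number of cultures is not given either, and genotype and culture cannot be told apart with 1 array per condition. The study used the arrays to look for p53 target genes whose products modulate myosin.

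When a trimeric ligand such as FasL or TRAIL gathers its receptor, the adaptor FADD joins the receptor tail and brings in caspase-8, which cuts itself and starts the caspase cascade. The protein c-FLIP, the product of Cflar, takes the place of caspase-8 in that complex and holds it back. TNF receptors instead gather RIPK1 and ubiquitin ligases, and from there the signal goes to NF-kB or, when that route fails, to apoptosis or necroptosis. Fas, Tnfrsf10b and Eda2r are known p53 target genes, and p53 links DNA damage to the receptor route of cell death through them.

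The oligonucleotides that read the receptors with the widest differences between arrays, and those of the genes read by more than 1 probe, are shown by their first 30 bases of the 60 that each holds, since every value given for a gene is the binding of 1 such oligonucleotide. Coordinates are those of the files in the mouse build mm9, each spanning the 60 bases of its probe except for Fadd, whose interval in the files is shorter than the probe. Fas was read at chr19:34402164-34402223 on the plus strand and Tnfrsf10b at chr14:70184141-70184200 on the plus strand. Tnfrsf1a was read at chr6:125312376-125312435 on the plus strand by probe 1 and at chr6:125311922-125311981 by probe 2, whose start lies 454 bases away. Eda2r was read at chrX:94534281-94534340 on the minus strand by probe 1 and at chrX:94531320-94531379 by probe 2, 2961 bases away. Cflar was read at chr1:58811116-58811175 on the plus strand by probe 1, at chr1:58789994-58790053 by probe 2, 21122 bases away, and at chr1:58810660-58810719 by probe 3, 456 bases away. The single probes of the other genes lie at chr4:144802359-144802418 on the minus strand for Tnfrsf1b, chr3:27238508-27238567 on the plus strand for Tnfsf10, chr7:151764228-151764267 on the minus strand for Fadd, chr1:58901601-58901660 on the plus strand for Casp8 and chr13:34125152-34125211 on the plus strand for Ripk1. Probe 1 is the brightest over the arrays and stands for the gene. Whether each position is coding or untranslated was not analysed here.
Fas: gaagaccttccattgatggacagttctttt
Tnfrsf10b: gatgtccttttctagtgtgtttgaagccag
Tnfrsf1a probe 1: agcaatctttgtatcaattatatcacacta
Tnfrsf1a probe 2: ttccaagatgaacctggctgggtgcctgga
Eda2r probe 1: cctcagagagccattctcaatgggtccata
Eda2r probe 2: aatttggaagcaagcttaccttacattgta
Cflar probe 1: gatttgacactgaatgtaacttgagactta
Cflar probe 2: ctttcttgctgatgtataaattgcctcctt
Cflar probe 3: tcatggacaaagtgtatgcgtggaacagtg

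Values are relative intensities, that is the processed Cy3 intensity of a probe divided by the 75th percentile of its own array, so a value of 1 equals that percentile. The 75th percentile was between 1819 and 2421 intensity units, and 56.9% to 62.9% of the probes were well above background by the flag of the scanner software. A log2 ratio compares 2 arrays, and a gene was called at a 2-fold difference. With 1 array per condition there is no replicate error and no test, so every difference is one between these 4 RNA samples. The scale of measurement error is known only within an array: repeat spots of 253 probes gave an SD of 0.08 on the log2 scale, which amounts to 0.12 for a ratio, and the error model of the software gave 0.20 to 0.28 for a ratio of a gene reported here. The 9 fibroblast markers examined were well above background on all 4 arrays, with summed relative intensities of 554 to 817, and among them Pdgfra was 10.3-fold lower in treated than untreated WT MEFs. Between 5 and 7 of 8 leukocyte markers also were (summed 14.7 to 20.0, mostly Itgam), beside 2 to 3 of 4 epithelial markers (5.55 in untreated WT, 9.53 in treated WT, 5.25 in untreated p53-/- and 17.7 in treated p53-/- MEFs, without Epcam) and 2 to 3 of 4 endothelial markers (2.33 to 4.21, without Cdh5). The Itgam level came from its brightest probe (11.7 to 17.4), and its other probes gave 0.0147 to 0.0989. Ptprc, at 0.0315 to 0.0431, lay under the brightest negative control spot of each array. Trp53, the gene of p53, had relative intensities of 0.592 in untreated WT, 1.89 in treated WT, 0.235 in untreated p53-/- and 0.224 in treated p53-/- MEFs. It was thus lower in both p53-/- samples, though well above background there. The labels do not describe the p53-/- allele, and whether the Trp53 probe lies in an altered part of the gene was not analysed.

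Doxorubicin came with higher Fas, Eda2r, Cflar and Tnfrsf10b RNA in WT MEFs. Fas and Cflar were also at least 2-fold higher with doxorubicin in p53-/- MEFs, while Tnfrsf10b stayed level there and Eda2r was not well above background. Tnfrsf1b was lower with doxorubicin in WT MEFs. In WT MEFs 4 of the 9 measured genes were called higher, where 11.0% of all measured genes were, and 1 was called lower, where 10.4% were. In p53-/- MEFs 2 of 8 were called higher, where 9.24% of all genes were, and 0 were called lower, where 6.89% were. In these bulk samples, a change in the share of cells that express a gene and a change in RNA per cell cannot be told apart.

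**Figure D1:**
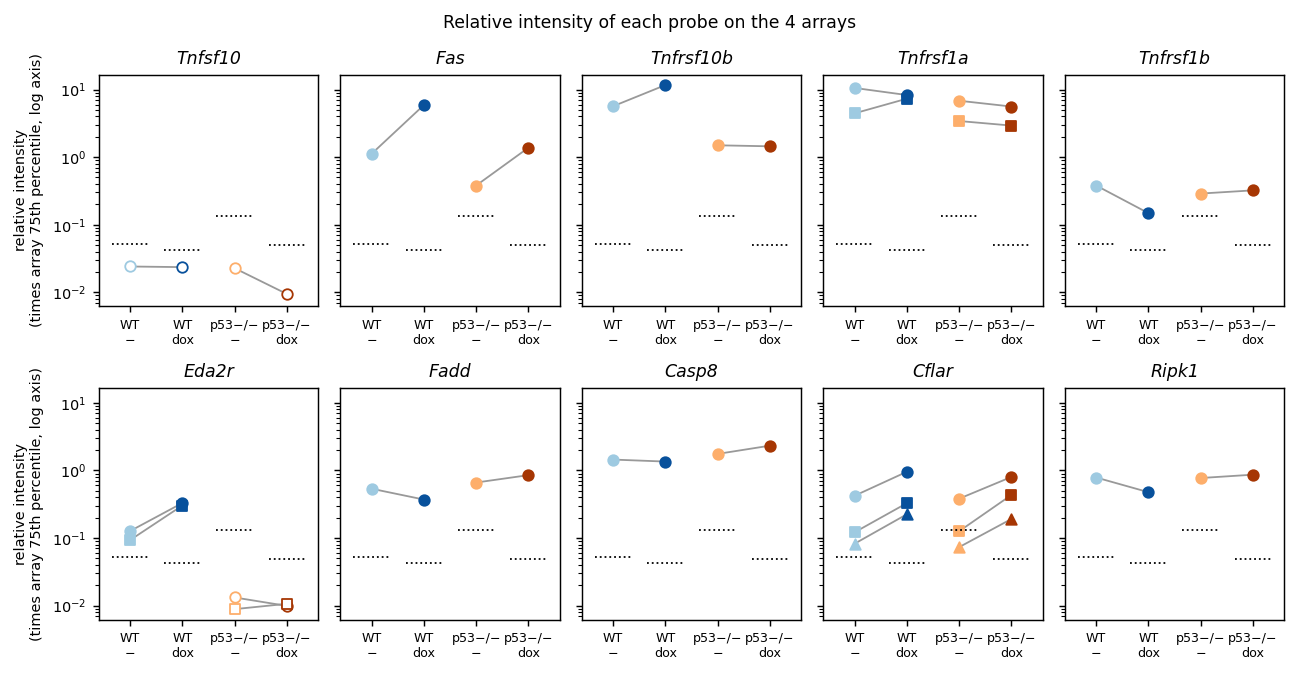
Relative intensity (vertical log axis, in multiples of the array's 75th percentile) of every probe of the 10 genes on the 4 arrays, 1 point per array. Circles are probe 1, squares probe 2 and triangles probe 3, filled where well above background and open where not, and the dotted lines mark the brightest negative control of each array. Fas is higher with doxorubicin in both genotypes, Tnfrsf10b only in WT, and Eda2r is open on both p53-/- arrays.

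The ligand gene Tnfsf10 codes for TRAIL, which binds the receptor made from Tnfrsf10b. Its relative intensity was 0.0241 in untreated WT, 0.0236 in treated WT, 0.0227 in untreated p53-/- and 0.00944 in treated p53-/- MEFs. None of the 4 spots was well above background, and all lay under the brightest of 153 negative control spots of their array, so no ratio is given.

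Fas, the receptor for FasL, had a relative intensity of 1.12 in untreated WT, 5.89 in treated WT, 0.380 in untreated p53-/- and 1.38 in treated p53-/- MEFs. Treated WT MEFs were highest and untreated p53-/- MEFs lowest, with treated p53-/- MEFs slightly above untreated WT MEFs. The log2 ratio of doxorubicin over untreated was 2.40 in WT (5.27-fold) and 1.86 in p53-/- MEFs (3.63-fold). Larger ratios were seen for 347 of 17513 measured genes in WT and for 422 of 16950 in p53-/- MEFs. The log2 ratio of WT exceeded that of p53-/- MEFs by 0.54, under the 1 that was called. Repeat spots within an array give an SD of 0.16 for such a difference, and the error model gave 0.20 and 0.21 for the WT and p53-/- ratios. Neither holds the spread between arrays or cultures. Before treatment Fas was 2.94-fold lower in p53-/- than in WT MEFs, and under doxorubicin 4.27-fold lower.

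Tnfrsf10b codes for the TRAIL receptor with a death domain, also called DR5. Relative intensities were 5.66 in untreated WT, 11.6 in treated WT, 1.496 in untreated p53-/- and 1.45 in treated p53-/- MEFs. Both WT samples were above both p53-/- samples. The log2 ratio with doxorubicin was 1.04 in WT (2.06-fold) and -0.05 in p53-/- MEFs, so the WT value was just past the call, and scaling to the array median instead of the 75th percentile gave 0.76, short of it. The difference of 1.09 between the log2 ratios made Tnfrsf10b the 1 gene of 8 measured in all conditions whose WT ratio was at least 1 above its p53-/- ratio, where 8.37% of all genes were. Untreated p53-/- MEFs had 3.78-fold less than untreated WT MEFs, and only 64 of 17286 genes were lower in that comparison. Under doxorubicin the same comparison gave 8.05-fold less, with 176 of 17888 genes lower.

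Eda2r codes for a receptor of the A2 form of ectodysplasin, also called XEDAR. Probe 1 gave relative intensities of 0.127 in untreated WT and 0.329 in treated WT MEFs, a log2 ratio of 1.38. On the p53-/- arrays it gave 0.0132 and 0.0099 and was not well above background on either. Against the lowest signal that was well above background there, Eda2r was at least 4.11-fold lower in untreated p53-/- MEFs and at least 9.15-fold lower in treated p53-/- MEFs than in WT MEFs of the same treatment. The untreated p53-/- array had a bright negative control, 250.1 units, and the WT level was 0.951 times as bright as that control, while under doxorubicin it was 6.66 times the brightest one. Probe 2 behaved alike, with intensities of 192.8, 549.8, 16.7 and 25.7 units in untreated WT, treated WT, untreated p53-/- and treated p53-/- MEFs, and a log2 ratio of 1.70 in WT.

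Tnfrsf1a codes for TNF receptor 1, which has a death domain. Probe 1 had relative intensities of 10.6 in untreated WT, 8.29 in treated WT, 6.82 in untreated p53-/- and 5.60 in treated p53-/- MEFs. It is printed on 10 spots of each array, which ranged from 10.06 to 10.94, from 7.84 to 8.67, from 6.42 to 7.07 and from 5.38 to 5.84 in that order. These spots repeat 1 RNA sample on 1 array, so their ranges do not hold the spread between arrays or cultures. The log2 ratio with doxorubicin was -0.35 in WT and -0.28 in p53-/- MEFs by probe 1. Probe 2 had relative intensities of 4.45, 7.33, 3.42 and 2.93 in the same order, and its log2 ratio was 0.72 in WT MEFs but -0.22 in p53-/- MEFs. The probes thus differ in sign in WT MEFs, and neither ratio was called. Both placed p53-/- MEFs under WT MEFs, by a log2 ratio of -0.63 untreated and -0.56 treated for probe 1 and of -0.38 and -1.32 for probe 2.

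Tnfrsf1b codes for TNF receptor 2, which lacks a death domain and binds TRAF2. Its relative intensity was 0.380 in untreated WT, 0.148 in treated WT, 0.289 in untreated p53-/- and 0.322 in treated p53-/- MEFs. Treated WT MEFs were lowest and the other 3 samples lay close together. The log2 ratio was -1.36 in WT (2.56-fold lower) and 0.16 in p53-/- MEFs, and the latter turned to -0.14 under scaling to the array median. At -1.52 it was the 1 gene of 8 whose WT log2 ratio was at least 1 below its p53-/- ratio, where 9.86% of all genes were. Under doxorubicin Tnfrsf1b was 2.18-fold higher in p53-/- than in WT MEFs, a log2 ratio of 1.12 that dropped to 0.90 with another background correction.

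**Figure D2:**
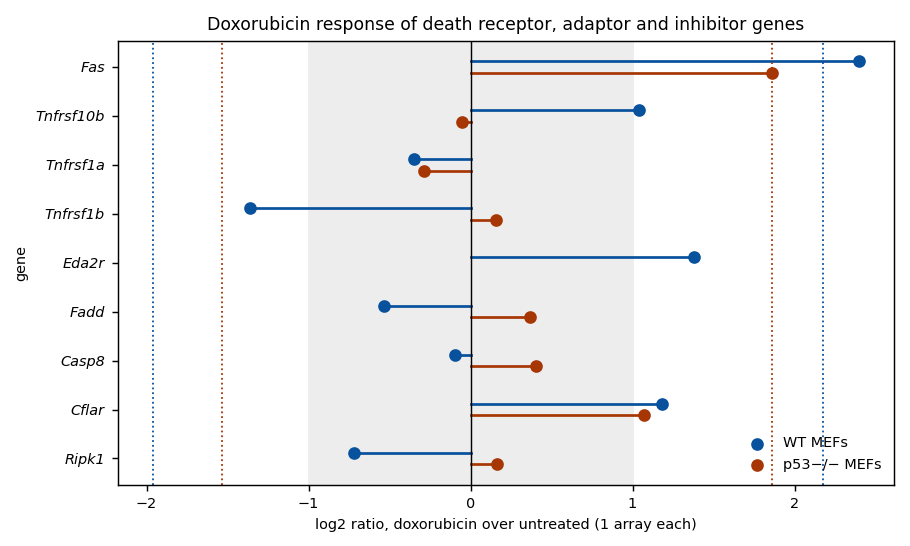
Log2 ratio of doxorubicin over untreated (horizontal axis) for the 9 measured genes by probe 1, in WT (blue) and p53-/- MEFs (brown), 1 array per condition. The grey band spans less than 2-fold, and the dotted lines in the color of each genotype bound the middle 95% of all measured genes. Fas lies past the upper bound in WT and at it in p53-/- MEFs, Eda2r has no p53-/- value, and the small p53-/- values of Tnfrsf1b and Ripk1 turn negative under scaling to the array median.

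Fadd codes for the adaptor that couples death receptors to caspase-8. Relative intensities were 0.536 in untreated WT, 0.371 in treated WT, 0.662 in untreated p53-/- and 0.852 in treated p53-/- MEFs, lowest in treated WT and highest in treated p53-/- MEFs. The log2 ratio with doxorubicin was -0.53 in WT and 0.36 in p53-/- MEFs, neither past the call. Under doxorubicin Fadd was 2.30-fold higher in p53-/- than in WT MEFs.

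Casp8 codes for the initiator caspase of the receptor route. It had relative intensities of 1.45 in untreated WT, 1.35 in treated WT, 1.76 in untreated p53-/- and 2.33 in treated p53-/- MEFs. The log2 ratio was -0.10 in WT, less than the SD of 0.12 from repeat spots, and 0.41 in p53-/- MEFs. No comparison of Casp8 was called.

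Ripk1 codes for the kinase that TNF receptor 1 gathers. Its relative intensity was 0.786 in untreated WT, 0.476 in treated WT, 0.772 in untreated p53-/- and 0.865 in treated p53-/- MEFs, so treated WT MEFs stood under the other 3. The log2 ratio was -0.72 for WT and 0.16 for p53-/- MEFs, the latter -0.13 under scaling to the array median. Fadd, Casp8 and Ripk1 shared the order of the genotypes under doxorubicin, with p53-/- above WT MEFs by log2 ratios of 1.20, 0.78 and 0.86.

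Cflar differed from those 3 genes. Probe 1 had relative intensities of 0.422 in untreated WT, 0.956 in treated WT, 0.382 in untreated p53-/- and 0.802 in treated p53-/- MEFs. Both treated samples were above both untreated samples, and the genotypes lay close together at each treatment. The log2 ratio with doxorubicin was 1.18 in WT and 1.07 in p53-/- MEFs, a difference of 0.11 that is within the spread of repeat spots. Scaling to the array median brought these ratios to 0.90 and 0.77, under the call, as the median over all measured genes then stood at -0.27 for WT and -0.30 for p53-/- MEFs. Another background correction (normexp) gave 0.97 in p53-/- MEFs. Probe 2 gave 1.43 for WT and 1.78 for p53-/- MEFs, and probe 3 gave 1.45 and 1.38, so all 3 probes were at least 2-fold higher with doxorubicin in both genotypes. In untreated p53-/- MEFs, however, probes 2 and 3 read 237.2 and 138.0 units, under the brightest negative control of that array (250.1).

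**Figure D3:**
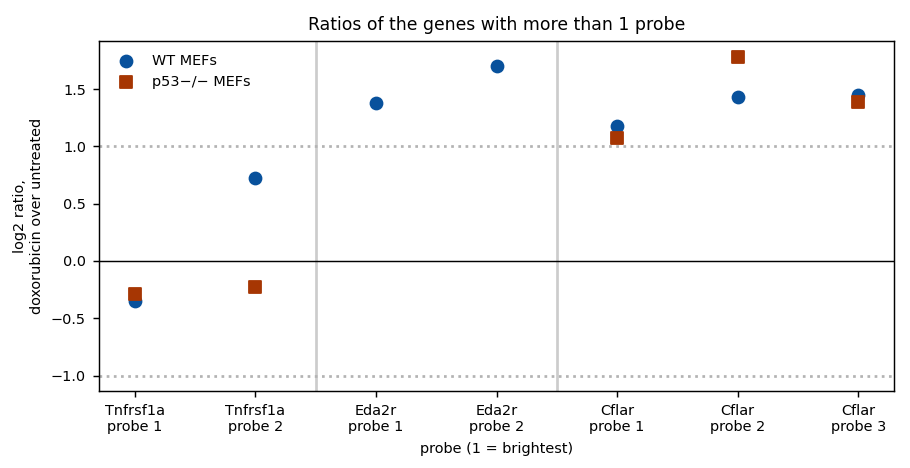
Log2 ratio of doxorubicin over untreated (vertical axis) for each probe of Tnfrsf1a, Eda2r and Cflar, circles for WT and squares for p53-/- MEFs, with dotted lines at 2-fold. The Tnfrsf1a probes lie on both sides of 0 in WT MEFs, at -0.35 and 0.72, while both Eda2r probes and all 3 Cflar probes lie above the upper line.

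Between genotypes without treatment, 0 of 8 measured genes were called higher in p53-/- MEFs, where 2.15% of all genes were, and 2 were called lower, Fas and Tnfrsf10b, where 2.61% were. Under doxorubicin 2 were called higher, Tnfrsf1b and Fadd, where 11.9% of all genes were, and 2 were called lower, again Fas and Tnfrsf10b, where 10.3% were. Eda2r, which has bounds only, is not among these counts. Over the 8 genes the median difference between the WT and p53-/- log2 ratios was -0.28, beside 0.01 over all 16513 genes measured on all arrays. The comparisons share arrays, since each of the 4 arrays enters several of them, and are not independent of each other.

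The genes whose profile over the 4 arrays was closest to that of Fas, by Euclidean distance of the centered log2 values among 16513 genes, were Pmaip1 (distance 0.236), Gm10638 (0.422) and Pqlc3 (0.441). Pmaip1, which codes for the BH3-only protein Noxa, had relative intensities of 4.00, 24.3, 1.41 and 4.53 in untreated WT, treated WT, untreated p53-/- and treated p53-/- MEFs. Its log2 ratio with doxorubicin was 2.60 in WT and 1.68 in p53-/- MEFs. Closest to Tnfrsf10b were Cpped1 (distance 0.414), Cryab (0.499) and Efs (0.504), with WT log2 ratios of 0.93, 1.62 and 1.49 and p53-/- log2 ratios of -0.56, -0.01 and -0.42. Cryab and Efs passed the call in WT MEFs and Cpped1 did not, and all 3 genes were picked for this likeness.

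Among 42 other genes of the pathway, 10 of 36 measured were called higher with doxorubicin in WT MEFs and 3 lower, beside 11.0% and 10.4% of all genes. In p53-/- MEFs 10 of 35 were called higher and 1 lower, beside 9.24% and 6.89%. Their median log2 ratio was 0.08 for WT and 0.66 for p53-/- MEFs, where the median over all genes was 0.01 for WT and 0.00 for p53-/- MEFs.

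Of the other receptors and decoys, 6 of 10 measured were called higher with doxorubicin in WT MEFs (11.0% of all genes) and 2 of 9 in p53-/- MEFs (9.24%). By the difference between the ratios 1 of 9, Tnfrsf23, was called (8.37% of all genes). Tnfrsf22 and Tnfrsf23 code for TRAIL decoy receptors without a death domain and were called higher in WT MEFs, as Tnfrsf10b was. The log2 ratio of Tnfrsf23 was 2.16 in WT and 0.86 in p53-/- MEFs, with relative intensities of 2.49, 11.1, 1.40 and 2.53 in untreated WT, treated WT, untreated p53-/- and treated p53-/- MEFs. For Tnfrsf22 it was 1.88 in WT and 1.03 in p53-/- MEFs by its brighter probe, and 0.57 and 0.77 by its dimmer one. Tnfrsf26, a related gene named here after its values were seen, had a log2 ratio of 2.95 in WT. Its untreated WT signal, 107.3 units, was under the brightest negative control of that array (108.3). Relative intensities were 0.0517 in untreated WT, 0.399 in treated WT, 0.00655 in untreated p53-/- and 0.0362 in treated p53-/- MEFs. Neither p53-/- array was well above background, so the higher treated value there has no ratio. Under doxorubicin Tnfrsf26 was at least 11.0-fold lower in p53-/- than WT MEFs. Tnfrsf11b, whose product osteoprotegerin is a soluble decoy that also binds TRAIL, was higher in both genotypes, by 1.42 and 1.57. The log2 ratios of Tnfrsf19 were 1.51 and 0.66 and those of Tnfrsf12a, the TWEAK receptor gene, 1.07 and 0.52 in WT and p53-/- MEFs. Tnfrsf25, which codes for death receptor 3, was called lower in WT (-1.21) and not in p53-/- MEFs (-0.22).

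Few ligand genes were measured. Fasl, which codes for the ligand of Fas, was well above background only in treated WT MEFs. Its signal there, 79.27 units, was just above the brightest negative control of that array (77.46). Its relative level was 0.835 times the brightest negative control of the untreated WT array. The relative intensities of Fasl were 0.00741 in untreated WT, 0.0436 in treated WT, 0.00776 in untreated p53-/- and 0.0362 in treated p53-/- MEFs. Both treated values were above both untreated ones, but only that of treated WT MEFs was well above background. Tnf and Lta, the ligand genes of both TNF receptors, were not well above background on any array. Eda, the ectodysplasin gene whose A2 form binds the Eda2r product, was lower with doxorubicin in both genotypes, by a log2 ratio of -1.55 (WT) and -1.53 (p53-/-). Tnfsf15, which codes for the ligand of death receptor 3, had relative intensities of 0.454, 0.159, 0.141 and 0.626 in untreated WT, treated WT, untreated p53-/- and treated p53-/- MEFs. It was lower with doxorubicin in WT (-1.51) and higher in p53-/- MEFs (2.15). Its untreated p53-/- signal, 264.7 units, was just above the brightest negative control of that array (250.1).

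Adaptors and ubiquitin enzymes of the TNF receptor route gave no single pattern. Of 13 measured, 2 were called higher with doxorubicin in WT MEFs (11.0% of all genes) and 5 in p53-/- MEFs (9.24%). Under doxorubicin 5 were called higher in p53-/- than WT MEFs (11.9% of all genes). In that comparison 4 of the 13 had a log2 ratio below 0, none of them called lower, which were Tradd (-0.97), Cyld (-0.52), Rbck1 (-0.49) and Sharpin (-0.25). The doxorubicin ratio in WT was at least 1 below that in p53-/- MEFs for 3 of the 13, Traf1, Traf2 and Birc3 (9.86% of all genes). Traf1, an adaptor that pairs with TRAF2 at TNF receptor 2, went from a log2 ratio of -0.85 in the WT pair to 2.69 in the p53-/- pair. Those of Traf2 were -0.79 and 0.69, and those of Birc3, which codes for the ubiquitin ligase cIAP2, were -0.73 and 1.21. In untreated p53-/- MEFs Traf1 (266.6 units) and Birc3 (254.5) were just above the brightest negative control of that array (250.1). Tnfaip3, which codes for the deubiquitinase A20, was called higher in both genotypes, with 2.70 and 3.58, as was Cyld with 1.02 and 1.14. Daxx had 0.47 in WT and 1.33 in p53-/- MEFs.

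Of 10 measured effectors and inhibitors, 2 were called higher with doxorubicin in p53-/- MEFs, Mlkl and Ripk3 (9.24% of all genes). Mlkl, which codes for the pore-forming protein of necroptosis, was called in both genotypes, with log2 ratios of 2.26 (WT) and 2.03 (p53-/-). Ripk3, the necroptosis kinase gene, had 0.57 and 1.39. Bid codes for the protein that caspase-8 cuts to reach the mitochondria, and its log2 ratio was -0.15 in WT and 0.99 in p53-/- MEFs.

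A list of interferon-stimulated genes was highest in treated p53-/- MEFs. The relative intensities of 12 such genes summed to 4.94 in untreated WT, 24.9 in treated WT, 6.30 in untreated p53-/- and 111 in treated p53-/- MEFs, and 10 of 11 measured were called higher in p53-/- than WT MEFs under doxorubicin, where 11.9% of all genes were. The summed epithelial markers were also highest in treated p53-/- MEFs, at 17.7, mostly Krt18 (16.6). The part of either list in the values of Fadd, Casp8, Ripk1, Tnfrsf1b or the TRAF genes was not tested.

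**Figure D4:**
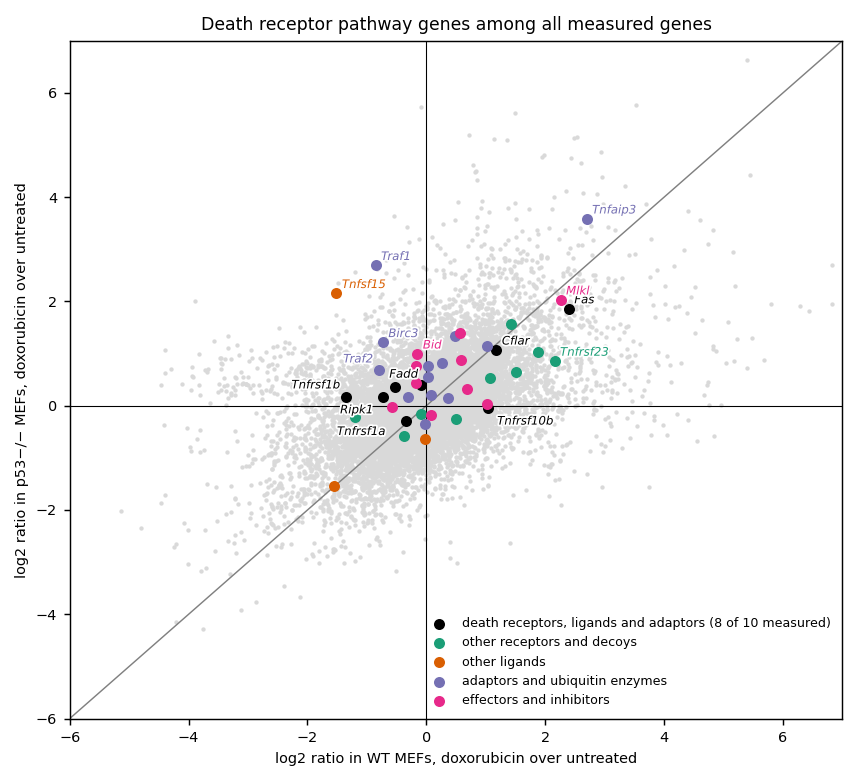
Log2 ratio of doxorubicin over untreated in p53-/- MEFs (vertical axis) against that in WT MEFs (horizontal axis) for all genes measured in both genotypes (grey), the reported genes (black) and 4 lists of other pathway genes (colored), with the line of equal ratios. Tnfrsf10b and Tnfrsf23 lie to the right of the line, Fas and Cflar close to it in the upper right, and Traf1, Tnfsf15, Birc3, Traf2 and Tnfrsf1b to its upper left. The black point without a name beside Fadd is Casp8.

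Promoter sequence is shown for Fas, which had the largest doxorubicin ratio among the 10 genes, and for Tnfrsf1b, whose WT ratio lay furthest below its p53-/- ratio among them, since the series contrasts p53 genotypes and a p53 site is the letter pattern of first interest. RefSeq windows (GRCm38.p6, not the build of the probes) of the 250 bases before the gene start were matched for 9 of the 10 genes, which did not include Tnfrsf10b. They were searched on both strands for the p53 half-site consensus, the NF-kB consensus, the interferon-stimulated response element core GAAANNGAAA and the gamma-activated site TTCNNNGAA, and the matches of the last pair did not overlap in the windows printed. The p53 half-site was found in 0 of the 9 genes and in 7.13% of 32851 windows of the table, and the NF-kB consensus in 0 and in 7.25%. The interferon-stimulated core was found in 1 gene, Tnfrsf1b, and in 2.98% of windows, and the gamma-activated site in 4 genes, Fas, Tnfrsf1a, Tnfrsf1b and Ripk1, and in 7.02%. The 9 genes have 10 windows, since Ripk1 has 2. A gene counted if any of its windows matched, so counts of genes and shares of windows are unlike units. These are matches of letters in short windows and say nothing about sites elsewhere in the genes. In the Fas window, chr19:34290409-34290658 on the plus strand, the capitals mark the gamma-activated site. In the Tnfrsf1b window, chr4:145246871-145247120 on the minus strand, the first capitals mark the gamma-activated site and the last the interferon-stimulated core, which reads on the opposite strand.
Fas promoter: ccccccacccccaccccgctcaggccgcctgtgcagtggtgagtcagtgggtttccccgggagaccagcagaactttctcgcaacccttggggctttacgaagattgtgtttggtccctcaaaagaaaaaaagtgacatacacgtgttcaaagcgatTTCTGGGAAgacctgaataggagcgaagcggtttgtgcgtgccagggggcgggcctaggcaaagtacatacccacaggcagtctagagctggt
Tnfrsf1b promoter: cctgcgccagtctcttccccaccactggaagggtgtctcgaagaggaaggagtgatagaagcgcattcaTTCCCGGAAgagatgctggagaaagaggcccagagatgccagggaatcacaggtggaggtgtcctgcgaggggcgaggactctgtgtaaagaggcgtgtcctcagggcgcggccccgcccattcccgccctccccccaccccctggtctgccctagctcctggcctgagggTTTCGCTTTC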

How the data were processed

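RNA of 4 MEF samples (WT and p53-/-, without and with doxorubicin) was labeled by the authors with Cy3 from 200 ng of total RNA and hybridized to 1 slide of 4 one-color Agilent arrays. The deposited intensity of each spot is the processed signal of Feature Extraction 10.7.3.1, background-subtracted and not normalized between arrays, and a second deposited table held values equal within a relative tolerance of 1e-05 at all 44397 spots. The mean and background intensity that the authors deposited served 1 alternative. Deposited flags (0 or 1) mark spots well above background, outliers and saturation, and 0 spots were saturated. Fold changes that the study computed with the Subio Platform were not used here.

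Control spots and outlier spots (145 to 168 per array) were left out, spots of a probe were averaged, and log2 intensities were set against the 75th percentile of each of 4 arrays over 39429 probes. A gene stands for its brightest probe and was measured where well above background on the arrays compared. Probes were named from RefSeq by accession (26055), symbol (3195) or synonym (930), or kept the name of the file (9249). No test was possible with 1 array per condition, so differences of at least 2-fold were counted. Where only 1 array was well above background, a bound was set against the lowest signal well above background (44.3 to 87.1 units). The number of arrays limits the precision. Alternatives were the array median, quantile normalization, normexp (limma 3.58.1, R 4.3.3, offset 50), other filters, other probes and thresholds of 1.5-fold and 3-fold. The steps were tested on simulated data in Python 3.11.15 (pandas 2.3.3, numpy 2.4.6, matplotlib 3.10.9). The genes and lists were chosen with earlier results of these data known. Named were all 10 genes, other pathway genes at least 2-fold different in a genotype or between the log2 ratios (at most 8 per list) or above background with doxorubicin in 1 genotype only, the 3 nearest profiles of Fas and Tnfrsf10b, and Trp53. Eda2r and Tnfsf10 were not measured on all arrays and have no such neighbors. Some genes of the lists are not reported here by name.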

Additional observations from a re-analysis of the deposited data

Results flagged for a closer look

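Among 35 other pathway genes measured in both genotypes, 4 were flagged. With doxorubicin these were at least 1.5-fold down in WT and at least 1.5-fold up in p53-/- MEFs. Each condition had 1 array, and the difference was not tested. Over all genes, 3511 of 17513 were at least 1.5-fold lower in WT and 3284 of 16950 at least 1.5-fold higher in p53-/- MEFs. The share of all genes that met both was not counted. The WT log2 ratio minus that in p53-/- MEFs was -3.67 for Tnfsf15, -3.54 for Traf1, -1.48 for Traf2 and -1.94 for Birc3. With scaling to the array median these differences were -3.64, -3.52, -1.46 and -1.92, but the p53-/- ratio of Traf2 was then 0.39, short of 1.5-fold. With normexp background correction they were -3.12, -2.75, -1.47 and -1.55. In untreated p53-/- MEFs Tnfsf15, Traf1 and Birc3 read 264.7, 266.6 and 254.5 units, just above the brightest negative control of that array (250.1). Traf1 in treated WT MEFs read 96.86 units, where that control was 77.46. No gene among the 10 reported death receptors, ligands and adaptors was at least 1.5-fold down in WT and at least 1.5-fold up in p53-/- MEFs.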

How the results depend on the processing

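Over 9 alternatives, 368 values of the 10 genes were recomputed. Of these, 331 stayed within the spread of repeat spots, and 0 of the 15 called values changed sign. Much of this agreement was fixed in advance. The other filters and the second deposited table can drop a value but not move it. The other probe choices can move only genes with more than 1 probe. Among uncalled values, 5 changed sign. They were the p53-/- ratios of Tnfrsf1b and Ripk1 under scaling to the array median, and, with another choice of probe, the WT ratio of Tnfrsf1a (0.72 by its dimmer probe) and the differences between genotypes of Tnfrsf1a (0.94) and Cflar (-0.06). Scaling to the array median left 2 genes called higher with doxorubicin in WT (Fas and Eda2r) and 1 in p53-/- MEFs (Fas). Over all genes it gave 1319 higher and 2792 lower in WT, against 1930 and 1828, and 955 and 2098 in p53-/- MEFs, against 1567 and 1168. Normexp left 1 gene higher with doxorubicin in p53-/- MEFs (Fas) and 1 higher in p53-/- than WT MEFs under doxorubicin (Fadd). Over all genes it gave 1154 of 16950 and 1573 of 17888 in those comparisons. Without a filter on dim probes 1 gene was lower with doxorubicin in p53-/- MEFs (Tnfsf10, at background), beside 2353 of 31704 over all genes. A WT ratio at least 1 above the p53-/- ratio was then seen for 3 (3623 of 31704 over all genes). Under doxorubicin 4 were lower in p53-/- MEFs (3615 of 31704 over all genes). The median difference was 0.0227, beside -0.20 over all genes. At 1.5-fold 2 of 9 genes were lower in WT MEFs, beside 3511 of 17513 over all genes. A lower WT ratio was seen for 3 of 8 (3280 of 16513 over all genes). Under doxorubicin 4 of 8 were higher in p53-/- MEFs (4077 of 17888 over all genes). At 3-fold 1 was higher in WT (Fas), 1 in p53-/- MEFs (Fas) and 1 lower in untreated p53-/- MEFs (Tnfrsf10b). Over all genes these counts were 888 of 17513, 647 of 16950 and 123 of 17286. At that threshold 0 were lower in WT (734 of 17513 over all genes). In either direction 0 differed between the ratios, where 523 of 16513 had a higher and 726 a lower WT ratio. Under doxorubicin 0 were higher in p53-/- MEFs (947 of 17888 over all genes). The fold thresholds change counts by construction, and the cause of the other shifts was not tested. A block for slide could not be fitted with all arrays on 1 slide. No paired analysis was possible because each group has 1 array.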
